A study of Mus musculus with 8 samples.

Results

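The 10 genes described here encode homeodomain transcription factors that mark out regions of the developing brain and head: En1, En2, Gbx1, Gbx2, Emx1, Barhl1, Barhl2, Vax2, Hmx2 and Hmx3. Each was represented by the 1 counted interval that best matched its RefSeq gene on mm10 (shared bases at or above 0.5 of the combined span), and all 10 were found among 20218 named genes. The interval is a transcript's whole span, introns included. The libraries are H3K27me3 ChIP-seq of E14tg2a, a mouse embryonic stem cell line (129SV background), from 2 clones, A and B, that carried a stable cRAF-ErT2 transgene, a RAF kinase which 4-hydroxytamoxifen (4OHT) switches on to drive ERK signalling. The promoter of the transgene is not named in the labels. All cells had grown in serum and LIF with 2 µM Chir99021, a GSK3 inhibitor, and FGF receptors were then blocked for 24 h with 250 nM PD173074, still in serum and LIF. The groups are cells without 4OHT (0 h) and cells given 250 nM 4OHT for 2 h, with 1 library per clone and time, so n = 2 libraries per time and 2 per clone. The 4 input libraries of the series were not analysed here, so no value below is corrected for background.

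H3K27me3 is the trimethyl mark that Polycomb repressive complex 2 places on histone H3, mostly around CpG islands of genes that are off. In embryonic stem cells it covers many regulators of later lineages, homeobox genes prominent among them. The engrailed genes En1 and En2 are needed at the midbrain-hindbrain boundary, Gbx2 sets the anterior limit of the hindbrain opposite Otx2, and its paralogue Gbx1 acts in hindbrain and spinal cord. Emx1 marks the dorsal telencephalon that forms cortex, Vax2 the ventral retina, Barhl1 and Barhl2 are BarH-like factors of diencephalon, hindbrain and retina, and Hmx2 and Hmx3 act together in inner ear and hypothalamus.

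Column totals ran from 70378127 to 92518605 counts, and the members held 918 to 4434 counts per library. Levels are given as density, an interval's count divided by its length in kb and by its column total in units of 1000000 counts, and as a multiple of the median named gene (0.357). A gene at 4 times that median or more (1.43) is called marked, which holds for 5.76% of named genes. Of 8 stem cell marker genes, 7 had an interval and 0 were marked, at 0.230 (Tfcp2l1) to 0.695 (Nanog) times the median. Of 4 measured neural genes 3 were marked, with Tubb3 at 0.516 times. The mark also passed the limit at 0 of 2 measured housekeeping genes, 1 of 4 fibroblast genes and 1 of 3 genes of extraembryonic endoderm. The share of cells that carry the mark and the amount per cell cannot be told apart in such bulk libraries.

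Dense H3K27me3 lay over 8 of the 10 genes, at 7.56 to 13.2 times the median gene, while Gbx1 and Vax2 fell short of the limit at 3.18 and 2.79 times. No member stood between 3.18 and 7.56 times. All 10 reached 2 times the median (18.8% of named genes do) and 7 reached 8 times (1.99% of named genes). The median density of the 10 was 3.55 ± 0.279 (SD of the median over 4 libraries), against 0.286 for all protein-coding genes. The members were chosen with these levels known, so the counts are a description.

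Barhl2 (chromosome 5, 106452523 to 106458166, minus strand; mm10 throughout) was the densest member. At 0 h its density was 5.10 (clone A) and 4.44 (clone B), and at 2 h it was 4.95 and 4.41, with a mean of 4.73 ± 0.352 (SD, n = 4 libraries), rank 76 of 20218 genes. Both clone A libraries lay above both clone B libraries, and the times overlapped. Its paralogue Barhl1 (chromosome 2, 28907686 to 28918433, minus strand) was lower, at 3.36 and 3.30 at 0 h and 3.61 and 3.30 at 2 h in clones A and B. The Barhl2 density was 1.39 ± 0.0841 times that of Barhl1 (SD, n = 4 libraries) and higher in each of the 4 libraries.

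Hmx3 (131541137 to 131546027) and Hmx2 (131548773 to 131558867) lie 2.75 kb apart on the plus strand of chromosome 7 and were the next in order. Hmx3 measured 4.86 (clone A) and 3.98 (clone B) at 0 h and 4.68 and 3.99 at 2 h. Hmx2 measured 4.35 and 3.89 at 0 h and 4.22 and 3.65 at 2 h. The ratio of Hmx3 to Hmx2 was 1.09 ± 0.0413, so this adjacent pair carried nearly the same density in all 4 libraries.

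Gbx2 (chromosome 1, 89927962 to 89931176, minus strand) and Gbx1 (chromosome 5, 24504426 to 24526848, minus strand) were the most unequal paralogues. Gbx2 measured 4.19 (A) and 3.51 (B) at 0 h and 4.42 and 3.61 at 2 h. Gbx1 measured 1.21 and 0.968 at 0 h and 1.32 and 1.03 at 2 h. The Gbx2 density was 3.48 ± 0.118 times that of Gbx1 (3.35 to 3.63 in single libraries), but the Gbx1 interval is 6.97 times as long. En1 (chromosome 1, 120602487 to 120607991, plus strand) and En2 (chromosome 5, 28165696 to 28172166, plus strand) were close. En1 measured 3.84 and 3.21 at 0 h and 4.09 and 3.53 at 2 h. En2 measured 3.64 and 3.22 at 0 h and 3.63 and 3.25 at 2 h. Their ratio was 1.07 ± 0.0551, and in the 0 h library of clone B En2 was the higher one.

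Emx1 (chromosome 6, 85187931 to 85204463, plus strand) measured 2.82 (A) and 2.54 (B) at 0 h and 2.90 and 2.53 at 2 h. Vax2 (chromosome 6, 83711264 to 83738304, plus strand) was the lowest member, at 0.977 and 0.995 at 0 h and 0.995 and 1.02 at 2 h. Its 4 libraries spanned the narrowest range of any member (SD 0.0183). Ordered by mean density, the members ran Barhl2, Hmx3, Hmx2, Gbx2, En1, En2, Barhl1, Emx1, Gbx1 and Vax2. The library ranges of neighbours in this order overlapped except at 2 steps, from Barhl1 (lowest 3.30) to Emx1 (highest 2.90) and from Emx1 (lowest 2.53) to Gbx1 (highest 1.32). En2 and Barhl1 held their order in 2 of 4 libraries.

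**Figure D1:**
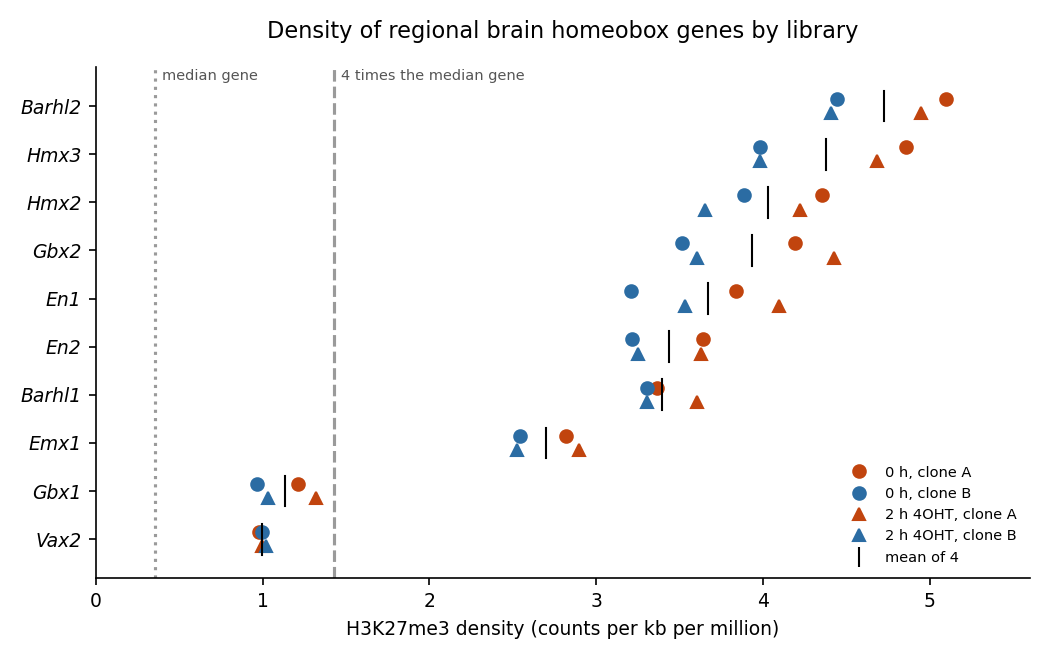
Density of each gene (counts per kb and per 1000000 of the column total, x axis) in the 4 libraries, coloured by clone and shaped by time, with a line at the mean. The 8 marked genes lie right of the dashed limit of 4 times the median gene, Gbx1 and Vax2 left of it, and in every gene but Vax2 both clone A libraries lie above both clone B libraries.

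The other genes of brain patterning that were listed for comparison were also split into many dense genes and a few below the limit. Of 40 listed genes 27 had an interval, and 23 of them were marked (85.2%), with a median of 10.96 times the median gene against 9.95 for the 10 members. Hoxa2, a hindbrain segment regulator, was densest at 13.99 times, followed by the forebrain factors Dlx1 and Dlx2 at 13.8 times each. Hmx1, the third gene of the Hmx family, stood at 13.6 times. The lowest were Lmx1a, a roof plate factor, at 2.67 times, Barx2 at 2.73 and Pax5, which acts at the midbrain-hindbrain boundary, at 2.87. Their intervals are long, at 159842, 67242 and 178935 bp, and that of Pax8 has 55049 bp. Density here is averaged over the whole span, and whether these genes hold a dense part was not tested. Lmx1b, at 80009 bp, was marked at 8.26 times. As with the members, no listed gene fell between 2.97 (Pax8) and 7.34 times (Lhx9).

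**Figure D2:**
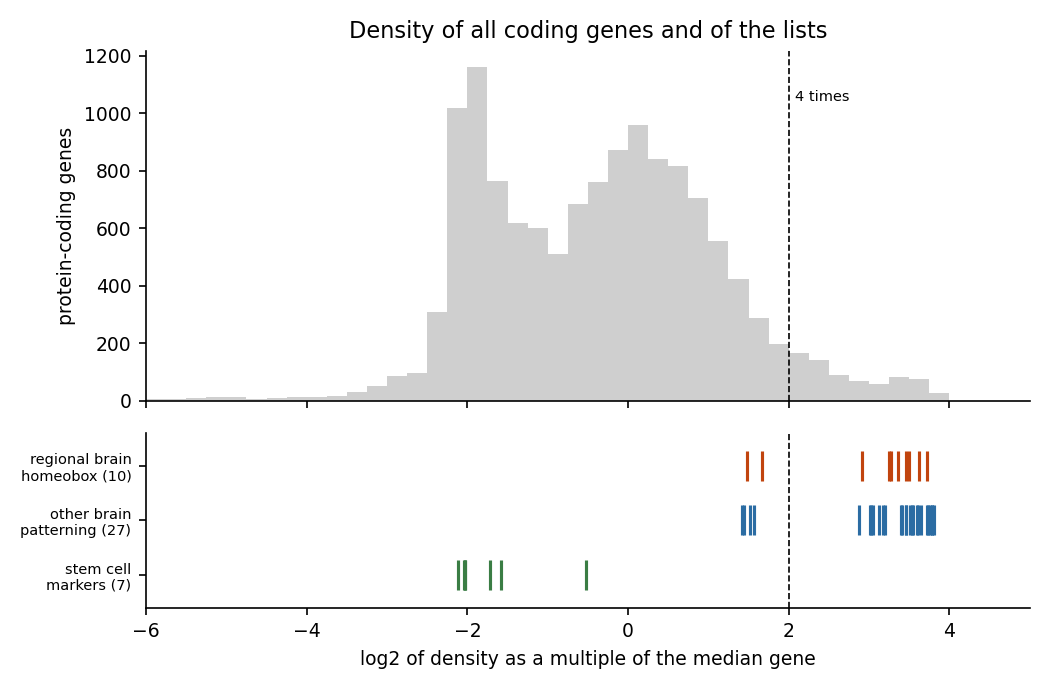
Top, number of protein-coding genes by log2 of density as a multiple of the median gene, with the limit of 4 times dashed. Below, 1 tick per gene for the 10 members, 27 other brain patterning genes and 7 stem cell markers. Both brain lists have most genes right of the limit and a few left of it, and the stem cell markers lie below 0.

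Promoter sequences are shown for 4 members whose RefSeq starts differ in CpG content, since CpG islands are where the mark is usually found. Each line gives the 250 bases before a start, 5′ to 3′ on the gene's strand (RefSeq, GRCm38.p6), with every CG in capitals.
Barhl2, chr5:106458167-106458416, minus strand: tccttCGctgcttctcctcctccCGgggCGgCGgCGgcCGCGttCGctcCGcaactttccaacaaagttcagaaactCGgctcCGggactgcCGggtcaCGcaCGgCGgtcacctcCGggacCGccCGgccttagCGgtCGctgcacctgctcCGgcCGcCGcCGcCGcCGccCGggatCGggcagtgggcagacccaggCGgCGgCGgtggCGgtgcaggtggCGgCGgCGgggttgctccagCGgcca
Hmx3, chr7:131542713-131542962, plus strand: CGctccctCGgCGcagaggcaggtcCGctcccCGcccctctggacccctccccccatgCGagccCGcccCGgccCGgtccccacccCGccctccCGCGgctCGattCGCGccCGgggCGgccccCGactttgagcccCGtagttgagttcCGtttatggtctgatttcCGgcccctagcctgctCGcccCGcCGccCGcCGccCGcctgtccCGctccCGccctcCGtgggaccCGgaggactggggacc
En1, chr1:120602237-120602486, plus strand: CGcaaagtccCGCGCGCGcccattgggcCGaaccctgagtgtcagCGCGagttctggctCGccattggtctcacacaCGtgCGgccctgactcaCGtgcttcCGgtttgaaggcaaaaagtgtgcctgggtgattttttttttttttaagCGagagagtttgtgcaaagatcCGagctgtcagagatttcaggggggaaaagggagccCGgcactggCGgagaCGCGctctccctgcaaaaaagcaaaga
Hmx2, upstream start, chr7:131548507-131548756, plus strand: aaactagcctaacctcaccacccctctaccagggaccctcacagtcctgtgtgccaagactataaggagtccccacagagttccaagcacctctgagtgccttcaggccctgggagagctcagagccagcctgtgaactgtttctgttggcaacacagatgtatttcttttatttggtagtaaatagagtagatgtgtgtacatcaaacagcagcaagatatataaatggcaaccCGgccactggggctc
Hmx2, downstream start, chr7:131554043-131554292, plus strand: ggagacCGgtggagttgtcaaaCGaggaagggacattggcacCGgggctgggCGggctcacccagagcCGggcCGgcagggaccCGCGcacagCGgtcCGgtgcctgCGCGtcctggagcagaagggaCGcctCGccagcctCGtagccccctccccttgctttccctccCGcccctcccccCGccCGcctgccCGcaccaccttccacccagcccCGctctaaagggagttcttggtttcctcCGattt
The Barhl2 and En1 stretches lie just outside the counted intervals, and those of Hmx3 and of the downstream Hmx2 start lie inside them.

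Of the 10 members, 7 had a window in the RefSeq promoter table, which runs from 250 bases before to 50 after a start; the others are En2, Gbx1 and Vax2. The CG dinucleotide, which reads the same on both strands, occurred 42 times in the 300 bases of Barhl2, more than in 97.0% of the 32851 windows of the table. Hmx3 held 39, Emx1 37, Gbx2 27 and En1 23, against a median of 7 over all windows. The median was 16 over the 651 windows of marked coding genes and 13 over the 12764 windows of other coding genes. The 2 Barhl1 windows held 9 and 14. The 2 starts of Hmx2 were unlike each other, with 2 at the upstream start (fewer were found in 14.1% of windows) and 22 at the downstream one. The mean H3K27me3 density of Hmx2 was alike in the 2 parts that could be read. The shorter 2521 bp interval around the downstream start had 4.04, and the remaining 7574 bp had 4.03 ± 0.281 (SD, n = 4 libraries). That remainder lies on both sides of the shorter interval, so the upstream start was not read apart.

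Density fell with interval length among the members. Intervals ran from 3.215 kb (Gbx2) to 27.041 kb (Vax2), and density and length had a Pearson correlation of −0.936 and a Spearman correlation of −0.806 over the 10 genes, which share their libraries; density is itself a count divided by length. All 5 members under 10 kb and all 3 of 10 to 20 kb were marked, and 0 of the 2 longer ones. Among all coding genes the marked share was 11.2% under 10 kb, 5.26% at 10 to 20 kb and 1.41% at 20 kb or more. Summed over the interval, Vax2 (26.97 counts per 1000000) and Gbx1 (25.4) held about as many counts as Barhl2 (26.7) and more than Gbx2 (12.6). The Vax2 and Gbx1 intervals are 27.041 and 22.423 kb long, against 5.644 kb for Barhl2. Longer intervals also collect more background, which was not removed, so equal counts do not show equal H3K27me3.

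Vax2 was the member in which shorter intervals showed where the signal lay. Gm32943, an interval of 3585 bp within Vax2 (chromosome 6, 83712798 to 83716382, minus strand), covered 13.3% of its length and held 38.8% of its counts. Its density was 2.81 and 3.07 at 0 h and 2.76 and 3.05 at 2 h in clones A and B, 8.19 times the median gene. The remainder of Vax2 stood at 0.703 ± 0.0206 (SD, n = 4 libraries), 1.97 times. Vax2os, an antisense transcript across the start of Vax2, stood at 7.48 times. In Barhl1, by contrast, the 4743 bp at the 3′ end (9.25 times) and the other 6005 bp (9.71 times) were alike. In Hmx3 the 1974 bp from the start that has a promoter window had 3.91. The other 2917 bp, mostly upstream of that start, had 4.70 ± 0.482. The RefSeq gene itself begins further upstream, so much of this part lies within it. No other counted interval matched Gbx1 or lay inside it. Strand plays no part in ChIP-seq reads, so antisense intervals report on the same chromatin.

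**Figure D3:**
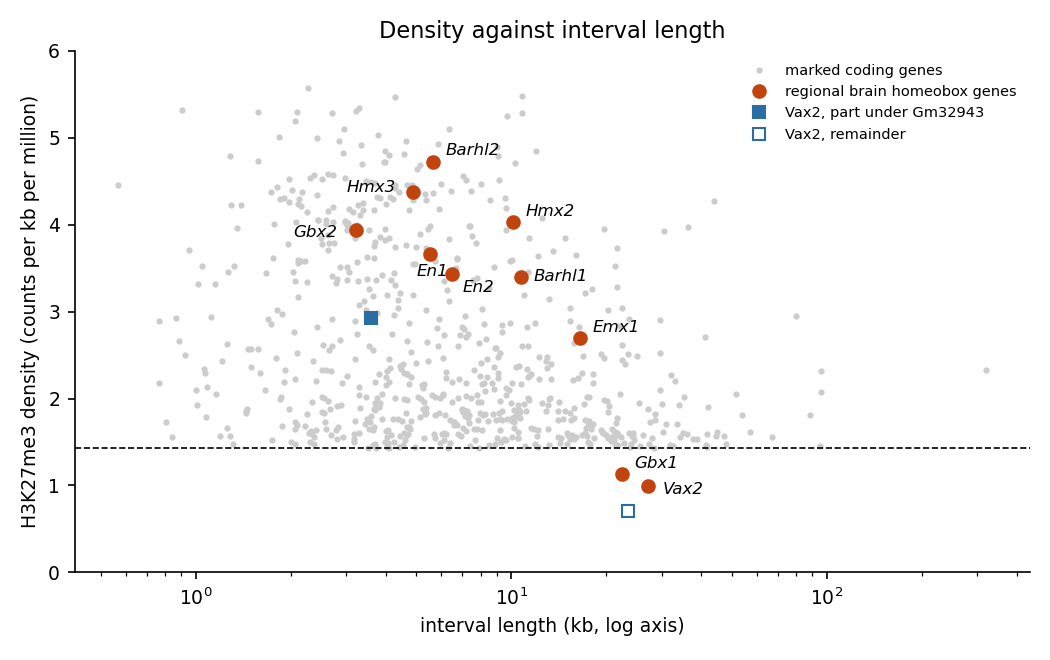
Density (counts per kb and per 1000000) against interval length (kb, log axis) for the 10 members, the 716 marked coding genes and the parts of Vax2 inside and outside Gm32943. The part of Vax2 under Gm32943 lies at 2.92, just above Emx1 (2.70), and the remainder at 0.703, below the dashed limit.

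Most members were denser than the named genes around them. The 2 nearest named genes on each side, taken without overlap, gave 36 genes that are not members. Of these 5 were marked, against 5.76% of all named genes, and the median of the 36 was 1.82 times the median gene. Their gaps to a member ran from 0.419 to 265.903 kb. Of 19 coding neighbours, 1 was marked. Ddx31, an RNA helicase gene 2.11 kb from Barhl1, stood at 0.263 times against 9.51 for Barhl1, and Bub3, a mitotic checkpoint gene 1502 bp from Hmx2, at 0.262 times against 11.3. Agap3, 2.38 kb from Gbx1, stood at 0.833 times.

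Of the 5 marked neighbours 4 were non-coding, and 2 of these lay at a member's own start or end. Gm33151, 419 bp beyond the Barhl2 start, had 10.3 times the median gene, and Gm34352, 419 bp past the end of En1, had 8.35 times. The antisense interval LOC102637806, which overlaps the start of Gbx2, had 12.0 times. Gm35055, 44043 bp from En2, stood at 8.09 times, and the longer Gm35223, which contains it, at 1.92.

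At Vax2 the order was reversed. Its neighbours on 1 side were denser than Vax2 itself: Atp6v1b1, a proton pump subunit gene 4.71 kb away, stood at 4.29 times and 1700124L16Rik, 23.5 kb away, at 10.4 times. Apart from the Hmx2 and Hmx3 pair, in which each gene is the other's neighbour, every other member was denser than all 4 of its neighbours. The share of all named genes with this pattern was not computed. Even Emx1, the lowest marked member, was at percentile 97.9 of named genes, so most neighbours would be expected to lie below. Some neighbour intervals are long, as for Agap1 (440472 bp), and their density is an average over that span.

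**Figure D4:**
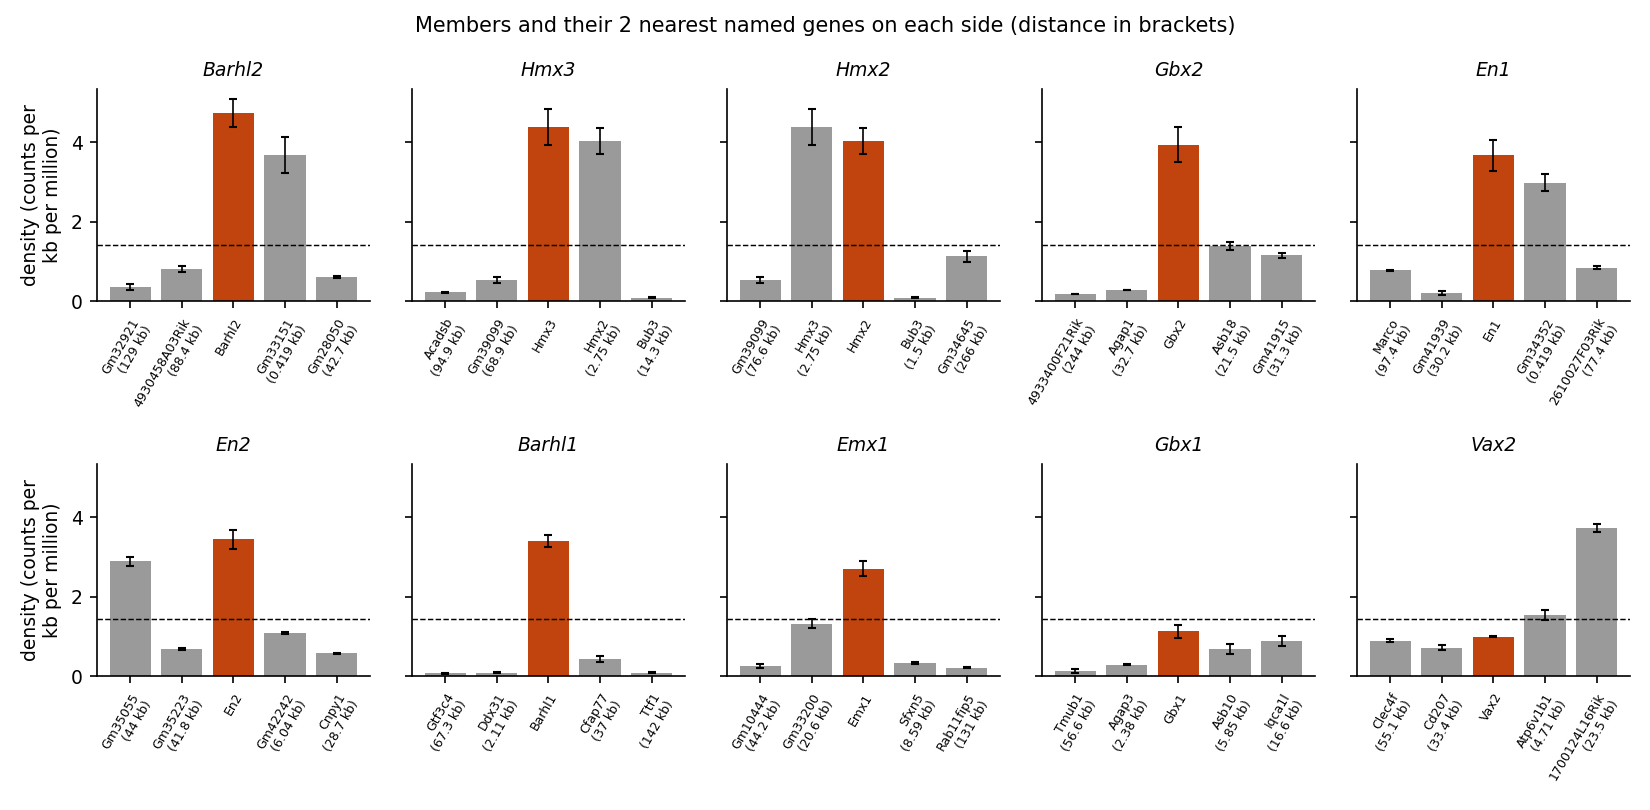
Mean density (counts per kb and per 1000000; bars, with SD over 4 libraries) of each member (orange) and its 2 nearest named genes on each side (grey), in genome order with the distance in kb; the dashed line is 4 times the median gene. Members stand above all their neighbours except at Vax2, and at Hmx2 beside Hmx3.

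The study's own comparison asks whether 2 h of RAF-ERK activation changed the mark. None of the 10 genes passed the edgeR quasi-likelihood test in either direction, and neither did any other interval (0% of 50037 called). Over all intervals 188 had an unadjusted p under 0.05, and DESeq2 called 0 with 2 at that level. Both counts are far below what that limit gives when nothing changes. These 2 fits did not pair the libraries by clone, although each clone was sampled at both times. With clone as a block in edgeR, 2078 intervals were at that level and 0 were called. The SEs in this paragraph are from the unpaired edgeR fit, and that of En1 was 0.06 with the block. En1 had the largest value, from a density of 3.52 ± 0.446 at 0 h to 3.81 ± 0.397 at 2 h (SD, n = 2), a log2 change of 0.11 (SE 0.14, adjusted p = 1.00 by edgeR). Changes in single clones are of density by column totals, without TMM factors. For En1 both clones moved the same way, by 0.09 (A) and 0.14 (B). Gbx1 followed at 0.11 (SE 0.17), with 0.12 in clone A and 0.09 in clone B. Hmx2 had the lowest value at −0.07 (SE 0.12), with −0.04 in clone A and −0.09 in clone B.

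The other members lay between −0.03 (Barhl2) and 0.06 (Gbx2). By column totals, 4 of the 10 were higher in both clones, 2 lower in both and 4 went opposite ways. The shares of named genes were 27.3%, 23.2% and 49.5%. For Barhl1 and Hmx3 the clone B changes were −0.00013 and 0.00025, and 3 of the 5 Barhl1 intervals were higher in both clones. Only in Vax2 did the libraries of the times not overlap, with clone B at 0 h and clone A at 2 h both reading 0.995, and 10.7% of named genes had both 2 h libraries above both 0 h libraries. The median change was 0.02 for the members, 0.05 for marked coding genes, 0.01 for all intervals and −0.00 for the 27 other brain genes. The 95% intervals of the change reached from −0.38 (Hmx3) to 0.51 (Gbx1), and with clone as a block, since the clones were sampled at both times, from −0.18 (Hmx2) to 0.24 (En1). Counts cover whole transcripts, so a change at a promoter alone could be diluted.

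With TMM factors from all intervals, the median log2 value of the members was 0.20 between the clones and 0.02 between the times. With factors from marked intervals, a scaling described below, these medians were −0.005 and −0.017. Whether the clones differed more than the times thus depended on the scaling. In 9 of the 10 genes both clone A libraries lay above both clone B libraries, a pattern seen in 28% of named genes. For Barhl1 this held in the interval of best overlap and not in its other 4 matching intervals, in which the clones overlapped. The reverse pattern held in 0 members and in 32% of named genes, and in Vax2 the clones overlapped. With TMM factors from all intervals, 8 members passed the edgeR test as higher in clone A and 0 as lower, against 17.3% and 10.3% of all intervals. Each clone is represented by its 0 h and 2 h libraries, so these p-values measure the spread between libraries of a clone. Gbx1 differed most, with a log2 difference of 0.37 (SE 0.06, adjusted p = 1.55e-08). Gbx2 had 0.30 (SE 0.07, adjusted p = 0.000242), Hmx3 0.28 (adjusted p = 6.39e-05) and En1 0.26 (adjusted p = 0.000325). Hmx2 and Barhl2 (0.20 each), Emx1 and En2 (0.19 each) also passed. Barhl1 at 0.10 (SE 0.06, adjusted p = 0.185) and Vax2 at −0.01 (SE 0.06, adjusted p = 0.911) did not.

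This direction was shared by dense genes in general: 457 of 716 marked coding genes (63.8%) and 20 of the 27 other brain genes passed as higher in clone A, and the median difference was 0.20 for the members, 0.20 for the other brain genes and 0.21 for marked coding genes. Genes that were not marked had a median of −0.01. Without the clone B library of 2 h the count of members called higher was 4 (En1, Gbx1, Gbx2 and Hmx3), and without the other libraries it was 6 to 9. Such fits leave 1 library for a clone.

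With factors taken from marked intervals alone, a setting added after these values were seen, 2 members differed between the clones. Gbx1 remained higher in clone A, at 0.16 (SE 0.06, adjusted p = 0.0262 by edgeR), and Vax2 was lower, at −0.22 (SE 0.06, adjusted p = 0.00102). The Vax2 value lies close to the median of all intervals, which this setting moved to −0.21, with calls over all intervals of 5.04% higher and 43.7% lower. The other 8 members lay between −0.11 (Barhl1) and 0.09 (Gbx2). The values from this scaling are relative to marked intervals, and Gbx1 and Vax2 are themselves below the limit for a marked gene. Which scaling holds was not tested. Of the 27 other brain genes 1 was then called higher and 5 lower, and of the 716 marked coding genes 123 and 109.

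Intervals in and beside the members were also read on both scales. With factors from all intervals, neither Gm32943 (−0.12, adjusted p = 0.252) nor Vax2os (0.01, adjusted p = 0.890) was called, and both share reads with Vax2. With factors from marked intervals they gave −0.33 (SE 0.08, adjusted p = 0.00016) and −0.19 (SE 0.06, adjusted p = 0.00191), against the median of −0.21 for all intervals on that scale. Atp6v1b1, beyond the far end of Vax2, was higher in clone A at 0.20 (adjusted p = 0.00424) with factors from all intervals and gave −0.01 (adjusted p = 0.917) with the others. The 3′ end of Barhl1 gave −0.02 (adjusted p = 0.865) with factors from all intervals and −0.23 (SE 0.07, adjusted p = 0.00295) with those from marked intervals. Near Gbx1, Asb10 and Iqca1l, which were sparse (1.93 and 2.47 times the median gene), were higher in clone A with factors from all intervals, at 0.43 (adjusted p = 4.43e-05) and 0.33 (adjusted p = 0.000101). With factors from marked intervals they gave 0.22 (adjusted p = 0.0490) and 0.12 (adjusted p = 0.199).

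**Figure D5:**
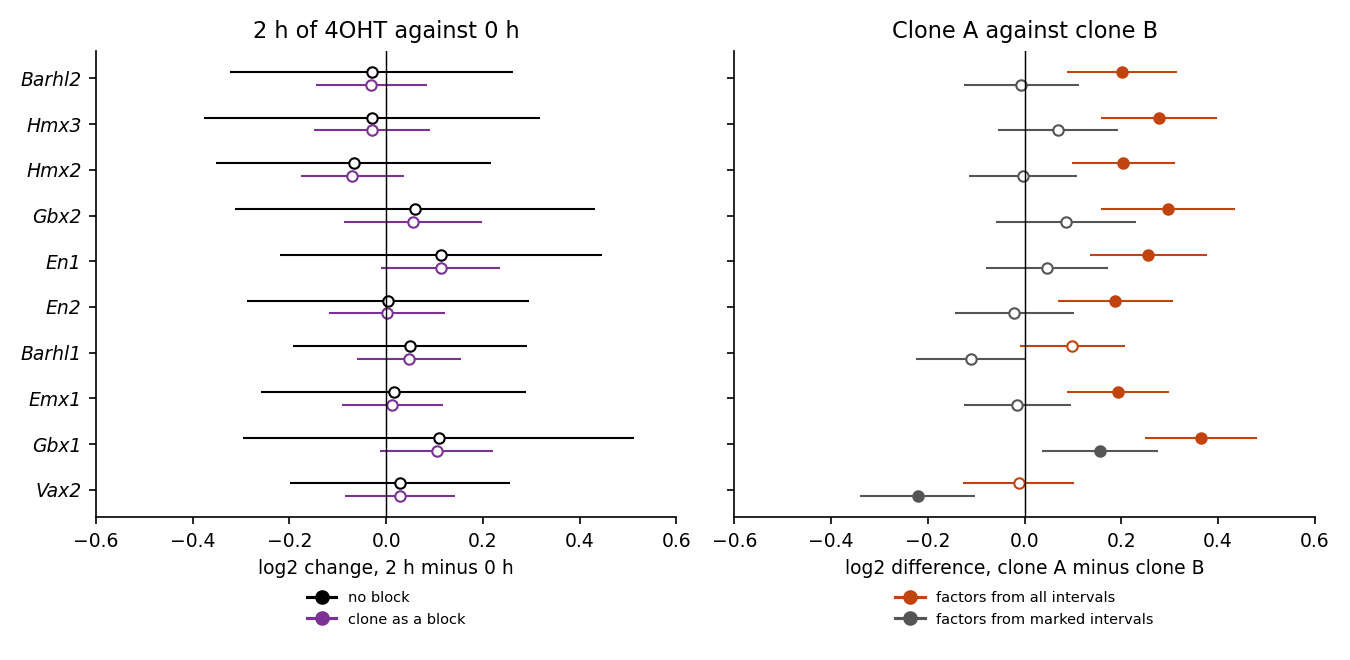
Log2 values of each member with 95% intervals (bars) for 2 h against 0 h, without and with clone as a block (left), and for clone A against clone B with TMM factors from all or from marked intervals (right); filled points passed an adjusted p of 0.05. No point is filled on the left, 8 are filled on the right with factors from all intervals, and Gbx1 and Vax2 with factors from marked intervals.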

How the data were processed

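The deposited values are whole-number counts of reads over transcript intervals in the 4 H3K27me3 libraries, per the file headers, with the interval length. Bowtie2, bedtools and the build mm10 are named in the submitters' processing notes, and their versions and settings are not given in the sources read here. The other 12 per-library columns were not used. The 50398 intervals cover chromosomes 1 to 10, X, Y and M; 84.8% of them overlap another, so column totals count some reads more than once. Starts count from 0 in the file and are given from 1 here.

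Intervals were named by RefSeq genes of GRCm38.p6 (shared bases at or above 0.5 of the combined span, and 0.2 clear of the next gene), which named 43783 intervals and 20218 genes. Values come from the 1 interval of best overlap. The rule for named genes covered every member, their 2 nearest genes on each side, the 3 comparison genes of highest and of lowest density, and stem cell and housekeeping markers. Hmx1, Pax8, Lhx9, Lmx1b and Tubb3 were named after their values were seen. The members and lists were chosen with earlier results of these data known.

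Comparisons used edgeR 4.0.16 quasi-likelihood tests over all intervals, with TMM factors, filterByExpr (50037 intervals, all 10 members among them) and Benjamini-Hochberg adjustment read at 0.05. SE denotes the log2 value's standard error. The tests were also run on simulated counts with the same spread for all intervals. The simulated comparison of times held no clone difference. It therefore does not show how small a change could be found in the real libraries. DESeq2 1.42.0, other scaling factors and filters, blocks and fits without each library were the alternatives. A planned comparison of protein sequences was not run. Per the labels each clone was taken at both times, so the letters A and B pair them; deviations from the time means correlated between libraries of the same clone (r = 0.53 over 50037 intervals). Whether libraries come from separate cultures is not stated, so p-values may measure technical spread. Reads carry no molecular identifiers. R 4.3.3 and Python 3.11.15 were used.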

Additional observations from a re-analysis of the deposited data

Results flagged for a closer look

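In 4 of the 10 genes the change in density over 2 h went opposite ways in the clones, as in 49.5% of named genes. These densities are scaled by column totals, without TMM factors, and the sign of changes this small can turn with the scaling. With 1 library per clone and time, none of these differences was tested. Barhl1 had a log2 change of 0.10 (clone A) and −0.00013 (clone B), a difference of 0.10, and 3 of its 5 matching intervals were higher in both clones. Hmx3 gave −0.052 and 0.00025, a difference of −0.052. Emx1 gave 0.039 and −0.0081, a difference of 0.047. En2 gave −0.0046 and 0.016, a difference of −0.020.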

How the results depend on the processing

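Between 2 h and 0 h, 0 members and 0 intervals were called under all 9 other settings (DESeq2, DESeq2 size factors, column totals, no filter, a mean count of at least 50, clone as a replicate block, and, added after seeing the data, 1 interval per gene and factors from marked intervals without and with the block). With the replicate block 2078 intervals had an unadjusted p under 0.05, and 3350 when factors from marked intervals were also used. In that fit Hmx2 gave −0.11 (95% interval −0.19 to −0.022, edgeR adjusted p = 0.718). Fits without 1 library gave 0 to 1 intervals lower and 0 members. The sign of small changes depended on the scaling: En2 gave −0.0054 with DESeq2 and −0.0053 with its size factors. Factors from marked intervals gave −0.036 for En2, −0.026 for Emx1 and −0.0074 for Vax2, and with the replicate block −0.036, −0.026 and −0.0084. Without single libraries, which confounds time with clone, the changes ranged from −0.020 to 0.25 for En1, −0.10 to 0.093 for En2, −0.11 to 0.28 for Gbx1, −0.12 to 0.20 for Gbx2, −0.11 to 0.11 for Emx1, −0.038 to 0.11 for Barhl1, −0.14 to 0.070 for Barhl2, −0.20 to 0.030 for Hmx2 and −0.17 to 0.12 for Hmx3.

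Between the clones, the main counts were 8633 intervals higher and 5132 lower in clone A. They were 5731 and 3049 with DESeq2, 3181 and 2113 with 1 interval per gene, 2523 and 21865 with factors from marked intervals, and 2330 and 18938 when time was also a covariate (replicate block). Leaving out each library gave 5252 to 8087 higher and 3414 to 4398 lower. Members called were 1 higher and 1 lower with factors from marked intervals, without and with the time covariate, and 7 or 8 higher and 0 lower under the other settings; without single libraries 4 to 9 were called higher and 0 lower. With DESeq2 En2 did not pass. With factors from marked intervals the signs turned for En2 (−0.021), Emx1 (−0.015), Barhl1 (−0.11), Barhl2 (−0.0069) and Hmx2 (−0.0040), and also with the time covariate (−0.021, −0.015, −0.11, −0.0065 and −0.0026). For Vax2, leaving out each library gave −0.036 to 0.0099. The 8 marked members and their median density of 3.55 held with the longest interval per gene and without each library (8 marked; median 3.45 to 3.66). With TMM-scaled totals the median was 3.55.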
